A study of Mus musculus with 12 samples.

Results

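MicroRNAs (miRNAs) of DN3 thymocytes with a Dicer deletion were set against those of control DN3 thymocytes, 2 of the 12 small RNA libraries of the series. They were chosen by label: DN3_Dicer and DN3_control are the libraries of these genotypes. DN3 cells are immature thymocytes without CD4 or CD8 that rearrange the T cell receptor beta locus. The control cells came from thymus of Lck-cre mice and the other cells from thymus of Dicer Lck-cre mice, all backcrossed to C57BL/6, 6 to 7 weeks old, and FACS-sorted. Both groups therefore carried the Cre recombinase, which the Lck promoter drives in the T lineage. The Dicer allele, the share of cells in which it was deleted and the number of mice per library are not given in the sources used here. Size-selected RNA of 19 to 30 nt, with the phosphate and hydroxyl ends that Drosha and Dicer cuts leave, was cloned and mapped to miRNA loci. Each group was 1 library, so no difference below has a replicate check, a test or an error. The values are relative to the library, so a loss of all miRNAs together would not appear in them.

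A miRNA hairpin is freed from its primary transcript by Drosha in the nucleus. In the cytoplasm, Dicer removes the loop and leaves a short duplex. Argonaute then keeps the guide strand and the passenger strand is mostly discarded. The seed, bases 2 to 8 of the guide, selects the target mRNAs, and the 3′ end can be lengthened or trimmed afterwards. miR-451 is matured without Dicer, by an Argonaute 2 cut and trimming. In thymocytes the miR-181 family is known for setting T cell receptor sensitivity and the miR-17~92 cluster for supporting lymphocyte growth and survival.

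The sequences below carry the family comparisons. Each is the most abundant deposited sequence of its miRNA in the control library, with the seed in capitals. The first 4 share the let-7 seed, the next 4 the seed of miR-17 and miR-20a, and the next pair that of miR-18. The last pair are miR-181 members of 1 seed.
let-7f: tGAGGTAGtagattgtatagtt
let-7a: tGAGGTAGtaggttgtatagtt
let-7i: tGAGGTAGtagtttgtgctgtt
miR-98: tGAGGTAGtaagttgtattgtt
miR-17: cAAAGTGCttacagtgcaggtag
miR-20a: tAAAGTGCttatagtgcaggtag
miR-93: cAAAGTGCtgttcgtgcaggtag
miR-106b: tAAAGTGCtgacagtgcagat
miR-18a: tAAGGTGCatctagtgcagatag
miR-18b: tAAGGTGCatctagtgctgttag
miR-181a: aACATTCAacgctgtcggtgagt
miR-181b: aACATTCAttgctgtcggtgggtt

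The deposited values are whole numbers on a scale of about 1000000 per library, with nothing below 10 listed. They summed to 994020 in control and 993965 in Dicer, over 1067 and 1080 distinct sequences. The 2 lists held 987 sequences in common, which carried 99.9% of the value of each. The sequences listed only in control reached 23 and those only in Dicer 36. By miRNA name, 208 were listed in control and 203 in Dicer, 195 of them in both. The reads behind a value are not known, so no counting interval can be given, and values near 10 are the least reliable.

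The miRNA profile of the Dicer library was close to that of the control. For each of the 183 miRNAs listed in both with a summed value of at least 50, the log2 ratio of Dicer to control was taken relative to the median miRNA. Of these, 134 (73.2%) lay within 0.5 log2 units of the median, with quartiles at -0.33 and 0.26. Past 1 log2 unit, 6 miRNAs were higher (3.28%) and 8 lower (4.37%), 14 in all (7.65%). Of the 62 miRNAs with a summed value of at least 2000, only miR-301a was past 1 log2 unit. The 10 most abundant miRNAs held 58.1% of the control value and 58.7% of the Dicer value, and 9 of them were the same.

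At the top of both lists stood miR-16, with 136868 in control and 143651 in Dicer. miR-181a followed with 98891 and 98040, and miR-20a of the miR-17~92 cluster with 91444 and 61316. These were the top 3 of control, and miR-20a had the lowest ratio among them, at -0.60. miR-21 went from 51578 in control to 64371 in Dicer, miR-128 from 33075 to 39830 and miR-142-5p, a miRNA of blood cells, from 21647 to 32185. let-7g was in the top 10 of control only (28645, against 24923 in Dicer), and miR-26a in that of Dicer only (20091 and 25031).

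**Figure D1:**
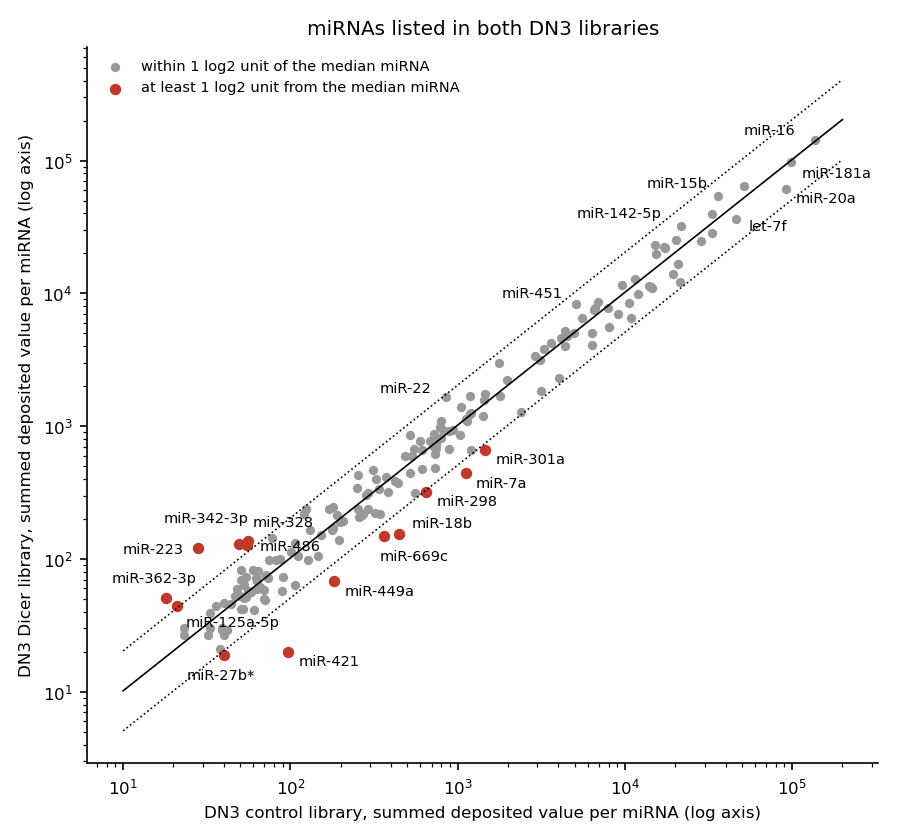
Summed deposited value of each miRNA in the DN3 control library (x axis) and the DN3 Dicer library (y axis), both on log axes, 1 point per miRNA. The solid line marks the median ratio and the dotted lines 1 log2 unit on each side. The 6 miRNAs above the upper dotted line all have values of 136 or less, while miR-301a is the most abundant below the lower one.

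All 6 miRNAs past 1 log2 unit on the high side were scarce, with no value above 136. miR-223, a miRNA of granulocytes and other myeloid cells, stood at 28 in control and 121 in Dicer, a log2 ratio of 2.07. miR-362-3p stood at 18 and 51 (1.45), miR-342-3p, of lymphocytes, at 49 and 129 (1.36), and miR-328 at 56 and 136 (1.25). miR-486, of red cells, stood at 55 and 127 (1.17) and miR-125a-5p at 21 and 44 (1.02). Those just inside the threshold on this side were more abundant in part. miR-22 went from 853 to 1650 (0.93), miR-532-3p from 124 to 238 (0.91), miR-222 from 78 to 145 (0.86) and miR-149 from 120 to 218 (0.83). The passenger strands miR-15b* and miR-140* completed the 12 highest, at 0.74 and 0.73. miR-362-3p and miR-532-3p belong to 1 X-linked cluster, in which 6 of 7 compared members were above the median miRNA, beside 49.7% of all 183, and the median was 0.39.

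The 8 on the low side ranged more widely in level. miR-421 stood at 97 in control and 20 in Dicer (-2.28), and miR-18b at 447 and 153 (-1.57). miR-449a, which shares its seed with miR-34, stood at 183 and 68 (-1.45). miR-7a went from 1115 in control to 441 in Dicer (-1.36), miR-669c from 362 to 150 (-1.29) and miR-301a from 1458 to 667 (-1.15). The passenger strand miR-27b* (40 and 19, at -1.08) and miR-298 (649 and 321, at -1.04) were closest to the threshold. miR-298 was at -0.52 when only its most abundant control sequence was used and at -1.87 in sequences of 21 to 22 nt. Just inside it lay miR-181d (2384 and 1274, at -0.93), miR-98 (1196 and 660, at -0.88), miR-191* (38 and 21, at -0.87) and miR-155 (4032 and 2287, at -0.84). miR-155 is known for its induction in activated lymphocytes.

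A sequence that drops below 10 is lost from its list, which affects miRNAs of low value most. With each missing sequence set to 10, miR-362-3p was at 0.39 and miR-27b* at -0.48, both inside 1 log2 unit, and miR-191* passed from -0.87 to 0.08, while miR-223 (1.30), miR-342-3p (1.10), miR-328 (1.01) and miR-421 (-1.70) were outside it. Of the 21 miRNAs listed in 1 library only, 13 were in control, none above 20, and 8 in Dicer. Only miR-146a, a feedback inhibitor of NF-kappaB signalling, passed 50 among them: it had 63 in Dicer and was not listed in control.

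The let-7 family was lower in the Dicer library throughout. All 9 compared members, miR-98 included, were below the median miRNA, against 49.7% of the 183, and none was past 1 log2 unit. Their median was -0.49, with a range of -0.88 (miR-98) to -0.23 (let-7g). let-7f went from 46303 to 36321 (-0.38), let-7a from 33369 to 28470 (-0.25), let-7c from 19406 to 14110 (-0.49) and let-7d from 13877 to 11459 (-0.30). let-7i, the lowest of the abundant members, went from 10893 to 6497 (-0.77). let-7b stood at 8038 and 5612 (-0.54) and let-7e at only 89 and 57 (-0.66). As a whole the family made up 16.3% of the control value and 12.9% of the Dicer value. Its hairpins are spread over several chromosomes and transcripts: let-7i lies outside annotated host genes at chr10:122985640-122985724, let-7g in an intron of Wdr82 on chromosome 9, and miR-98 in an intron of Huwe1 on the X chromosome.

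Members of the miR-17~92 cluster and its paralogs did not move together. Of 13, 9 were below the median miRNA and 4 above, with a median of -0.39, and only miR-18b was past 1 log2 unit. Within the 6 hairpins of Mir17hg, a non-coding RNA gene that holds them between 115043671 and 115044506 of chromosome 14, ratios ran from -0.67 to 0.34. miR-17 (14461 and 10911, at -0.43), miR-18a (6329 and 4052, at -0.67) and miR-20a were the low ones. miR-19a was near the median, with 1794 and 1689 (-0.11). miR-19b (6911 and 8641, at 0.30) and miR-92a (15392 and 19866, at 0.34) were above it, though miR-19b can also come from the X-linked paralog cluster. From that cluster, miR-106a (9103 and 6998, at -0.40), miR-20b (14355 and 11138, at -0.39) and miR-363 (319 and 223, at -0.54) were low. From the Mcm7 locus, miR-93 was low (20674 and 16750, at -0.33) while miR-25 (3609 and 4215, at 0.20) and miR-106b (3282 and 3815, at 0.19) were not.

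Most of the low members were long. The most abundant control sequences of miR-17, miR-20a, miR-20b, miR-106a, miR-93, miR-18a and miR-18b had 23 nt, against 20 to 22 nt for miR-25, miR-106b and miR-92a. miR-19a and miR-19b, also of 23 nt, were not among the low ones, and miR-363, of 21 nt, was. Counting only sequences of 21 to 22 nt, a choice made after seeing the data, the 13 members had a median of 0.00, with 7 above the median miRNA and 6 below, beside 50% on each side among the 160 miRNAs compared in this way. miR-17 was then at 0.11, miR-20b at 0.00, miR-106a at -0.01, miR-93 at -0.07 and miR-20a at -0.20. miR-18a was at -0.51, miR-18b at -0.68 and miR-363 at -0.75. In this count, 3 of the 160 were higher by at least 1 log2 unit (1.88%) and 4 lower (2.5%). The 6 miRNAs of the AAAGTGC seed moved from a median of -0.40 to -0.01. The let-7 members were low in the same count too: all 9 were below the median miRNA, at a median of -0.63. The most abundant control sequences of let-7f, let-7a, let-7i and miR-98 have 22 nt, so this count includes them.

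Other families were steadier or mixed. In the miR-15/16 family all 4 compared members were above the median miRNA, beside 49.7% of the 183, at a median of 0.15, but 2 of 4 in sequences of 21 to 22 nt, at a median of 0.07. miR-15b was the highest, with 35983 in control and 53816 in Dicer (0.56), followed by miR-15a with 9548 and 11657 (0.26), miR-16 at 0.04 and miR-322 with 793 and 808 (0.00). The 3 miR-29 members were all above, at 0.59 for miR-29a (15114 and 23184), 0.32 for miR-29b (17292 and 21961) and 0.28 for miR-29c (483 and 598). The miR-181 family was divided within its gene pairs. miR-181a (-0.04) and miR-181c (7881 and 7732, at -0.05) were near the median, while miR-181b (21312 and 12215, at -0.83) and miR-181d were low, although each low member has its hairpin beside that of a member near the median. In sequences of 21 to 22 nt miR-181b was at -0.55 and miR-181d at -0.84. The 3 compared miRNAs with the miR-34 seed were below the median, with 730 and 486 for miR-34a (-0.61).

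**Figure D2:**
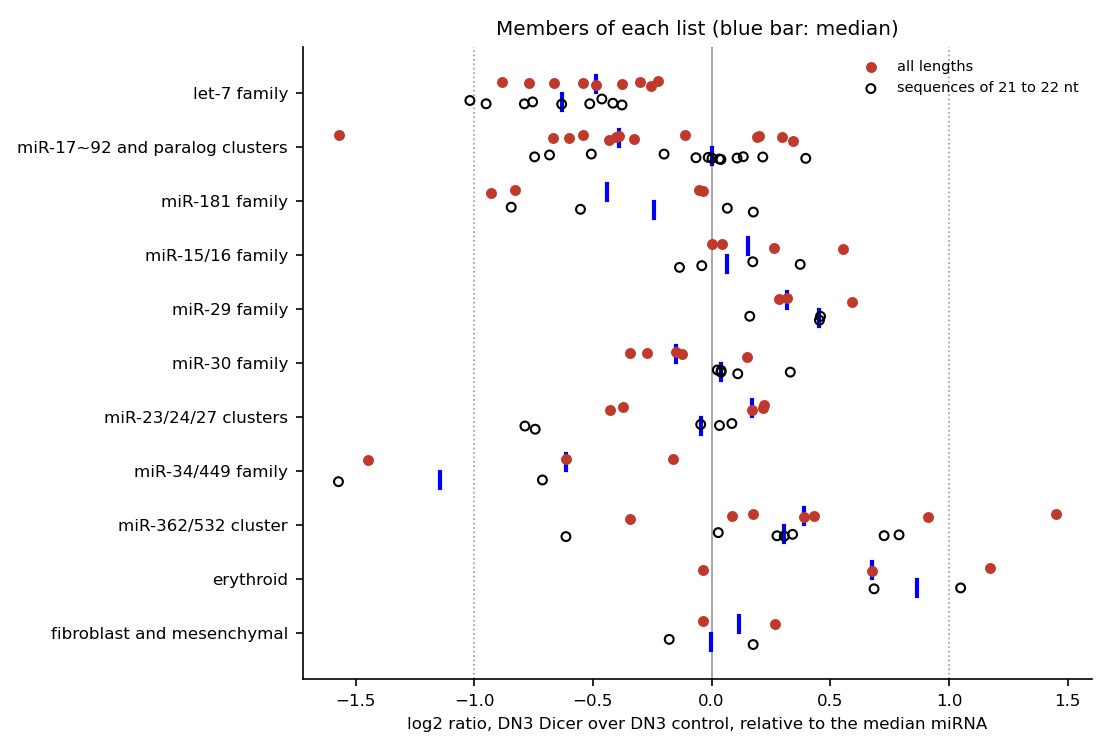
log2 ratio of DN3 Dicer to DN3 control relative to the median miRNA (x axis), 1 point per member, for lists of related miRNAs (y axis). Filled points use all sequence lengths, open points only sequences of 21 to 22 nt, and blue bars mark medians. The let-7 points lie left of 0 in both counts, while the miR-17~92 and paralog members have a median of -0.39 for all lengths and 0.00 for 21 to 22 nt.

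Mature miRNAs were shorter in the Dicer library. The mean length of guide and passenger sequences, weighted by value, was 22.16 nt in control and 21.99 nt in Dicer. Sequences of 20 nt or shorter made up 6.10% of the mature value in control and 7.97% in Dicer, and those of 21 to 22 nt 55.4% and 60.7%. Sequences of 23 nt or longer made up 38.5% in control and 31.4% in Dicer. For single sequences listed in both libraries, the median log2 ratio was 0.30 at 19 nt, 0.23 at 20 nt, 0.20 at 21 nt and 0.07 at 22 nt. It was -0.12 at 23 nt, -0.37 at 24 nt (54 of 65 lower in Dicer) and -0.85 at 25 nt (14 of 15 lower). Below 19 nt the medians were smaller again, at 0.28 for 18 nt, 0.18 for 17 nt and 0.15 for 16 nt, and at 15 nt all 11 sequences were lower in Dicer, with a median of -0.47. Sequences below 19 nt lie outside the size range that was selected and made up under 1% of the mature value in each library.

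**Figure D3:**
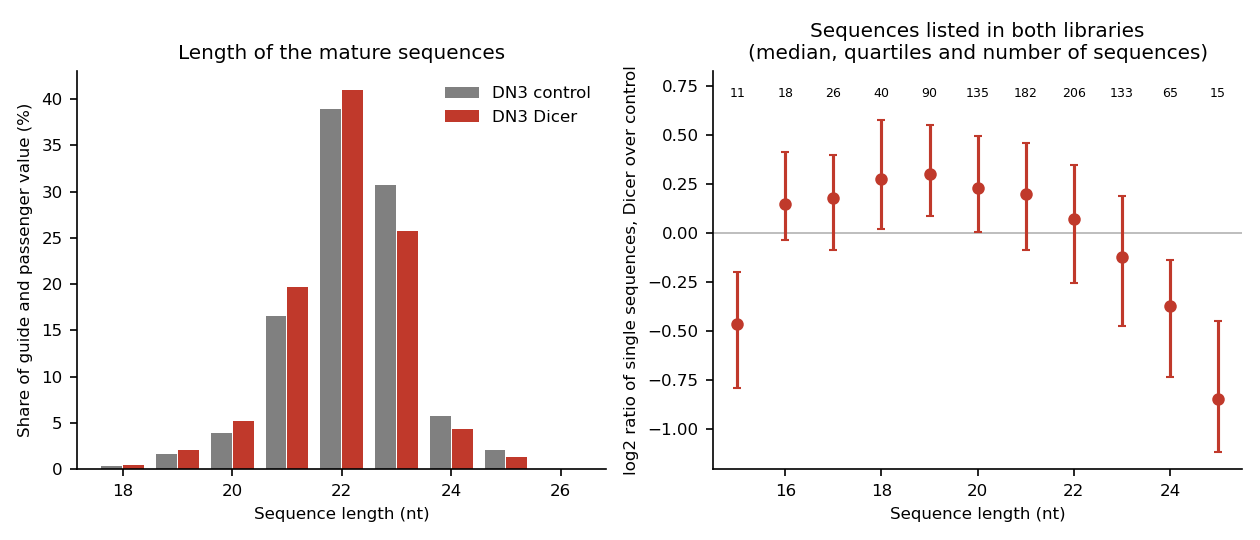
Left, share of the guide and passenger value (y axis, %) at each sequence length (x axis, nt) in the DN3 control (grey) and DN3 Dicer (red) libraries. Right, log2 ratio of Dicer to control for single sequences listed in both, by length, as median (point) and quartiles (bars), with the number of sequences above. The 23 nt share is 30.7% in control and 25.8% in Dicer, and the medians pass from 0.07 at 22 nt to -0.85 at 25 nt.

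The shift was shared by nearly all abundant miRNAs. Of 60 with a value of at least 1000 in both libraries, 57 had a shorter mean length in Dicer, with a median change of -0.10 nt. It was greatest for miR-18a (21.99 nt in control and 21.63 nt in Dicer, a change of -0.36 nt), miR-425 (-0.26 nt), miR-669a (-0.26 nt), miR-17 (-0.25 nt) and miR-423-5p (-0.25 nt). miR-17* (-0.24 nt), miR-93 (-0.23 nt) and miR-181b (-0.23 nt) completed the 8 largest changes. The 3 exceptions were miR-25 (0.04 nt longer), miR-128 (0.02 nt) and miR-140* (0.02 nt). The most abundant sequence was the same in both libraries for 54 of the 60. It passed to a shorter one for miR-18a (23 to 21 nt), miR-181b (24 to 23 nt), miR-142-3p (23 to 22 nt) and miR-181c (24 to 22 nt), and to a longer one for miR-128 (21 to 22 nt) and miR-25 (20 to 22 nt).

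**Figure D4:**
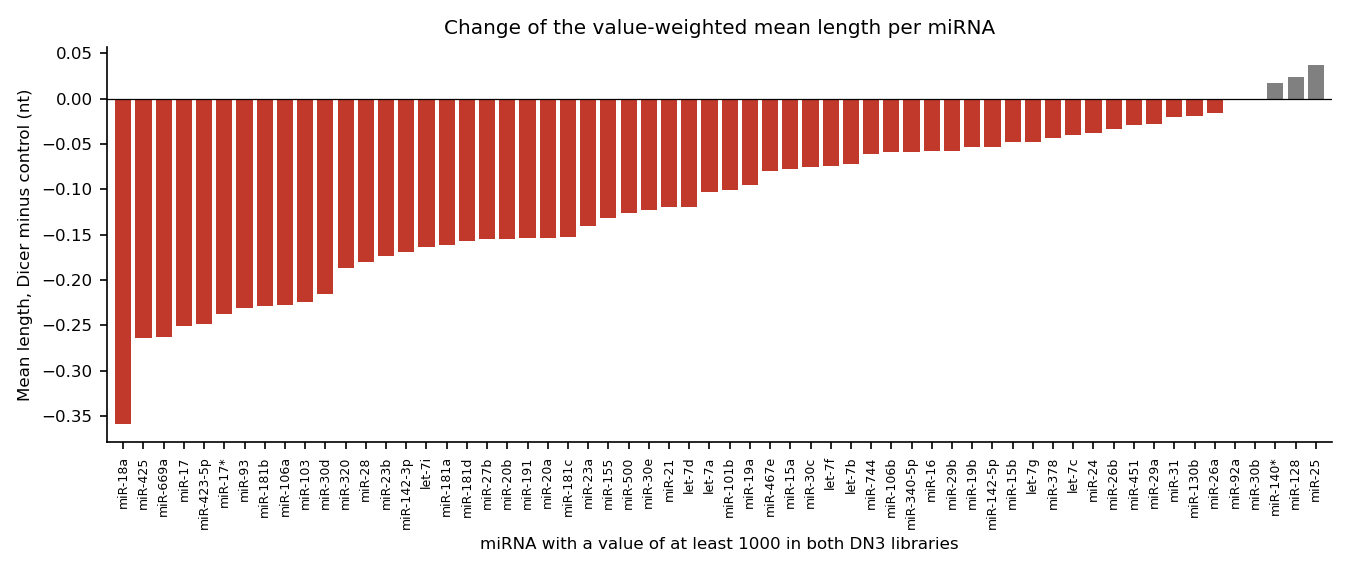
Change of the mean sequence length (y axis, nt, Dicer minus control), weighted by value, for the 60 miRNAs (x axis) with a value of at least 1000 in both DN3 libraries. Red bars mark shorter and grey bars longer means. The bars run from -0.36 nt for miR-18a to 0.04 nt for miR-25, and 57 of 60 are below 0.

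It was mainly the 3′ end that differed. Sequences were placed on mouse hairpins and mature sequences from RefSeq (GRCm38.p6), which held 95.5% of the mature value of control and 95.1% of that of Dicer. The 5′ start was that of the RefSeq mature sequence for 97.8% of the placed value in control and 97.1% in Dicer. The 3′ end fell short of the RefSeq end for 24.5% in control and 30.0% in Dicer, matched it for 54.5% and 49.7%, and passed it for 21.1% and 20.3%. Of 52 placed miRNAs with at least 1000 in both libraries, 48 had an earlier mean 3′ end in Dicer, by a median of 0.086 nt. No mean 5′ start moved by more than 0.087 nt. The largest start change was that of miR-140*, at -0.087 nt, more than its end change of -0.070 nt. For miR-142-5p the start changed by -0.073 nt and the end by -0.13 nt. The start of a miRNA fixes its seed, so for the value with the RefSeq start the seed was the RefSeq one in both libraries.

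The length dependence is visible within single miRNAs. The sequences below share their start, and capitals mark the bases past position 21. They are shown because the ratio differs between forms of 1 miRNA that end at neighbouring bases.
miR-20a, 21 nt: taaagtgcttatagtgcaggt
miR-20a, 22 nt: taaagtgcttatagtgcaggtA
miR-20a, 23 nt: taaagtgcttatagtgcaggtAG
miR-20a, 24 nt: taaagtgcttatagtgcaggtAGT
miR-301a, 22 nt: cagtgcaatagtattgtcaaaG
miR-301a, 25 nt: cagtgcaatagtattgtcaaaGCAT
miR-451, 22 nt: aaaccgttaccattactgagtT
miR-451, 23 nt: aaaccgttaccattactgagtTT
miR-451, 25 nt: aaaccgttaccattactgagtTTAG

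For miR-20a the 21 nt form stood at 7491 in control and 7768 in Dicer, and the 22 nt form at 11459 and 10553. The 23 nt form, the most abundant, stood at 67171 and 39026, a fold of 0.58, and the 24 nt form at 3811 and 2609. The difference in miR-20a therefore lay in the forms of 23 nt and longer. miR-301a, from an intron of Ska2 (chr11:87113004-87113089), was a stronger case. Its 22 nt form stood at 148 in control and 159 in Dicer, its 23 nt form at 149 and 111, and its 25 nt form at 1055 and 292. In sequences of 21 to 22 nt, miR-301a was at 0.01, against -1.15 over all lengths. For miR-18b, too, most of the difference lay in the 23 nt form, with 292 in control and 74 in Dicer, and for miR-7a in the 24 nt form, with 916 and 327. In sequences of 21 to 22 nt miR-7a was at -0.56, inside 1 log2 unit, as were miR-125a-5p (0.90) and miR-362-3p (0.79). For let-7f the 21 nt form stood at 7206 in control and 7606 in Dicer. Its 22 nt form, with most of its value, stood at 36112 and 26073, a fold of 0.72. This main form lay inside the 21 to 22 nt count, unlike those of miR-20a and miR-301a.

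**Figure D5:**
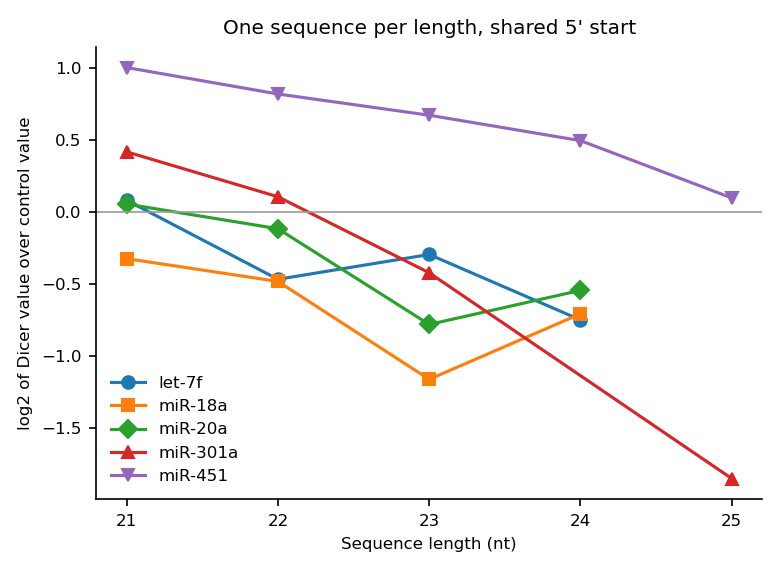
log2 of the Dicer value over the control value (y axis), not set against the median miRNA, for sequences of 5 miRNAs that share a 5′ start, by length (x axis, nt). Each point is the most abundant control sequence of its length. miR-301a passes from 1.07-fold at 22 nt to 0.28-fold at 25 nt, and miR-451 from 2-fold at 21 nt to 1.07-fold at 25 nt.

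miR-451, the Dicer-independent miRNA, was above the median in the Dicer library. It stood at 5126 in control and 8341 in Dicer, or 0.52% and 0.84% of the library, with a log2 ratio of 0.68. Its longer forms also had the lower ratios: the 21 nt form was 2-fold, the 22 nt form 1.76-fold, the 23 nt form 1.59-fold, the 24 nt form 1.41-fold and the 25 nt form, which the authors class as precursor, 1.07-fold higher. miR-451 is also a marker of red cells. Of the other erythroid miRNAs, miR-486 was higher (55 and 127) and miR-144, which lies in the same cluster as miR-451, was close to the median (341 and 338, at -0.04). The summed value of these 3 was 5522 in control and 8806 in Dicer, and the part of red cells in the miR-451 difference was not tested. The Drosha-independent hairpins, which still need Dicer, were near the median: miR-320 at 1141 and 1087 (-0.10) and miR-484 at 755 and 813 (0.08). These were the 2 listed of 7 such entries.

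Precursor-like entries were scarce in both libraries. Guide strands made up 98.3% of the control value and 98.0% of the Dicer value, passenger strands 1.10% and 1.35%, entries classed as precursor 0.592% and 0.610%, and loops 0.0125% and 0.0169%. By number of distinct sequences, the passenger share was 9.0% in control and 8.24% in Dicer, the opposite order to the value. The precursor class mixes longer forms of mature strands with strands that RefSeq now lists as mature. miR-92a-1 is the main case of the second kind, and its precursor entries summed to 1214 in control and 776 in Dicer. The other large sums were 633 and 1015 for miR-142, 631 and 983 for miR-669a, 681 and 701 for miR-181c and 611 and 637 for miR-451. Further ones were 210 and 316 for miR-140, and 306 and 255 for miR-16. The only loop sequence, that of the miR-142 hairpin (chr11:87756864-87756927, in an intron of Mir142hg), stood at 124 in control and 168 in Dicer.

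The miR-142 hairpin also gave several 5′ ends. The most abundant sequence at each start is shown with its seed in capitals, because the start sets the seed. Start 0 is the RefSeq start of miR-142-5p, and negative starts lie before it.
start -3: aCCCATAAagtagaaagcacta
start -2: cCCATAAAgtagaaagcactac
start 0: cATAAAGTagaaagcactact
start 1: aTAAAGTAgaaagcactact

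Start 0 held 54.2% of the arm's value in control and 51.8% in Dicer, and start -2 held 35.6% and 38.7%. These 4 starts all had more value in the Dicer library: 1.42-fold at start 0 (12083 and 17196), 1.62-fold at start -2 (7941 and 12854), 1.60-fold at start -3 (633 and 1015) and 1.32-fold at start 1 (1570 and 2072). The other strand, miR-142-3p, stood at 11554 and 12821.

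A few longer sequences were listed only in the Dicer library. Over all lengths, 93 sequences were listed only in Dicer and 80 only in control. Of 27 nt or longer, 2 sequences were listed in control and 6 in Dicer, with summed values of 38 and 85. Without miR-805, an entry from another class of RNA, no sequence of this length was listed in control and 5 were in Dicer, with a summed value of 65. The DN3 Drosha, Treg control and Treg Dicer lists held none. They came from the hairpins of miR-16-2 (27 nt, at 18), miR-181a-1 (27, 28 and 30 nt, at 10, 11 and 12) and miR-15b (31 nt, at 14). Each begins at the mature start and runs on into the loop side of the hairpin. Capitals below mark bases past the RefSeq mature end.
mir-16-2, 26 nt: tagcagcacgtaaatattggcgTAGT
mir-16-2, 27 nt: tagcagcacgtaaatattggcgTAGTG
mir-15b, 26 nt: tagcagcacatcatggtttacaTACT
mir-181a-1, 30 nt: aacattcaacgctgtcggtgagtTTGGAAT
mir-16-1, 26 nt: tagcagcacgtaaatattggcgTTAA

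The 26 nt forms of miR-16-2 (36) and miR-15b (18) were also listed in DN3 Dicer and not in DN3 control. The same 2 sequences were listed in Treg Dicer, at 23 and 42, and not in Treg control or DN3 Drosha. The 26 nt form of miR-16-1 was likewise listed in Treg Dicer, at 13, and in neither of those 2. miR-15b and miR-16-2 lie side by side in an intron of Smc4, at chr3:69009772-69009835 and chr3:69009902-69009996. The other copy, miR-16-1, in Dleu2 at chr14:61631880-61631972, gave the opposite order in DN3: its forms of 25 and 26 nt summed to 260 in control and 166 in Dicer. The 26 nt forms of miR-155 (21 and 10) and miR-181b-1 (21 in control, not listed in Dicer) were lower as well. All values in this comparison are small, and several are at the floor of the list. Precursor entries that begin at the mature start and pass its end by at least 3 bases came from 12 loci. They summed to 1097 in control and 1133 in Dicer, with 6 loci lower in Dicer and 6 higher. Such longer forms as a whole were therefore about as abundant in both libraries.

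Passenger strands took a larger share of their hairpins in the Dicer library more often than a smaller one. Over 29 hairpins with both strands at 10 or more in both libraries, the ratio of passenger to guide was higher in Dicer for 20 and lower for 9, with a median log2 change of 0.21. In sequences of 21 to 22 nt the median was 0.079 over 25 hairpins. The largest change was for miR-7a, whose passenger stood at 64 and 81 while the guide stood at 1115 and 441 (1.68). In sequences of 21 to 22 nt the change for miR-7a was smaller, with 64 and 71 for the passenger and 48 and 36 for the guide. miR-191 (-1.23) and miR-26b (-1.21) changed most the other way, with passenger values of 38 and 21 for miR-191 and of 22 and 10 for miR-26b, close to the floor. The miR-191 change rests on the passenger value that turned when missing sequences were set to 10. miR-17 is the case with the most value: its passenger strand stood at 4402 in control and 5194 in Dicer, or 23.3% and 32.3% of both strands. Most of this difference was absent in sequences of 21 to 22 nt. There the miR-17 passenger stood at 2485 and 3202 and the guide at 2858 and 3417. miR-140, whose abundant strand the authors class as passenger, changed by 0.81 (1769 and 2981 for that strand, 54 and 52 for the other). miR-27a (0.69), miR-27b (-0.73) and miR-92a (-0.65) completed the 8 largest changes. By position on the hairpin, the 75 miRNAs of the 5′ arm had a median ratio of -0.13 and the 62 of the 3′ arm 0.17. In sequences of 21 to 22 nt these medians were -0.11 and 0.06.

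Markers of other cells were listed in both libraries, and their part in the differences was not tested. The erythroid list was the largest of these, at 0.56% of the control value and 0.89% of the Dicer value. The files hold no mRNA, so the surface markers that define DN3 cells could not be checked. The 18 miRNAs of a T lymphocyte list made up 43.6% of the control value and 48.7% of the Dicer value. miR-150, which is high in mature lymphocytes, stood at 252 and 342, against 13579 in Treg control. Of 14 fibroblast and mesenchymal miRNAs, 2 were listed in control and 3 in Dicer, with sums of 1071 and 1154, and the defining miR-143, miR-145 and miR-199a were in neither. The 2 endothelial miRNAs summed to 453 and 369, and the epithelial ones, of which 5 of 7 were listed in control and 4 in Dicer, to 157 and 162. miR-223, the only myeloid entry, was 0.0028% of control and 0.0122% of Dicer.

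Treg cells with a Dicer deletion offer the nearest like comparison. They were CD4+CD25+ cells of Dicer CD4-cre mice, sorted from lymph nodes and spleen, with cells of CD4-cre mice as control. Background and age range were the same, and each group was again 1 library. There the let-7 family had a median of 0.21, with 7 of 9 members above the median miRNA (49.4% of 166 miRNAs were above it), where DN3 cells had 0 of 9. The miR-17~92 and paralog members had a median of -0.46 in Treg and -0.39 in DN3. The mean length of 47 of 53 abundant miRNAs was longer in Treg Dicer, by a median of 0.12 nt, the opposite direction to DN3. miR-223 was higher in both, from 24 to 746 in Treg. miR-451, above the median in DN3, was below it in Treg, with 1102 in control and 924 in Dicer (-0.13). In DN3 cells of Drosha Lck-cre mice, which are set against the same control library, 48 of 54 abundant miRNAs were longer, by a median of 0.11 nt. With 1 library in each group, a difference between genotypes and a difference between single libraries cannot be told apart.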

How the data were processed

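The authors deposited, for each library, a list of sequences with a miRNA locus, a class (guide, passenger, pre or loop) and a whole number, here treated as a score: a value scaled by the authors to about 1000000 per library. The header of the control list calls it normalized, and that of the Dicer list does not, but both sum to nearly that total and start at 10. Adaptors were clipped and sequences mapped to miRNA loci, per the labels. The mapping tool, genome build and miRNA release are not given in the sources used here. Sequencing depth is unknown.

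Values of mature strands (guide and passenger) were added up for each miRNA name over locus copies. The log2 ratio used a pseudocount of 0.5, a minimum summed value of 50 and the median miRNA as reference, with 1 log2 unit as the threshold. No test was possible with 1 library a group. Ends were read by exact match to RefSeq hairpins (GRCm38.p6, overlap of at least 12 nt), and host genes from GENCODE M21. The calculation was tested on simulated lists with known changes. Python 3.11.15 and pandas 2.3.3 were used.

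Named miRNAs are the 10 most abundant of each library, the 12 highest and 12 lowest ratios, the listed members of the let-7, miR-17~92 and paralog, miR-181, miR-15/16, erythroid, myeloid and Drosha- or Dicer-independent lists, those in 1 library only at 50 or more, those of the 10 most abundant precursor or loop entries, and the 8 largest changes of strand ratio and length. Others named were chosen after their values were seen. The members and lists were chosen with earlier results of these data known. Alternatives changed the pseudocount, minimum, centring, missing values, sequences and lengths used.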

Additional observations from a re-analysis of the deposited data

Results flagged for a closer look

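These results moved in opposite directions in DN3 and Treg cells under the same comparison, Dicer deletion against control. With 1 library in each group, the difference between the cell types was not tested. The median change of mean length was -0.10 nt in DN3 and 0.12 nt in Treg.

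Another 11 miRNAs were picked for lying at least 0.5 log2 units from the median miRNA on opposite sides. In all, 183 miRNAs were compared in DN3 and 166 in Treg. Lower in DN3 Dicer and higher in Treg Dicer were miR-18b (-1.57 and 0.65), miR-301a (-1.15 and 1.20), miR-155 (-0.84 and 0.61), miR-107 (-0.84 and 1.19), miR-450a-5p (-0.66 and 1.27) and miR-34a (-0.61 and 1.75). Higher in DN3 Dicer and lower in Treg Dicer were miR-342-3p (1.36 and -0.52), miR-140* (0.73 and -0.53), miR-29a (0.59 and -0.54), miR-378* (0.58 and -1.05) and miR-142-5p (0.55 and -0.62). Other miRNAs lay at least as far from the median on the same side in DN3 and Treg. Lower in both were miR-181b (-0.83 and -0.68), miR-181d (-0.93 and -1.39), miR-31 (-0.79 and -1.39), miR-1198 (-0.56 and -0.56), miR-363 (-0.54 and -0.59) and miR-297a (-0.52 and -0.58). Higher in both were miR-221 (0.70 and 1.61), miR-362-3p (1.45 and 1.14), miR-223 (2.07 and 5.05), miR-149 (0.83 and 0.78) and miR-669f (0.65 and 1.14). Opposite signs were thus no more frequent than like signs among the miRNAs this far from the median in both.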

How the results depend on the processing

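No paired analysis was possible because each group is 1 library and the result comes from no test, and for the same reason no library could be left out. With a minimum summed value of 200, 0 miRNAs were higher by 1 log2 unit instead of 6, and the medians were -1.0 for the miR-34 family, 0.44 for mature lymphocyte and 0.35 for erythroid miRNAs. With only sequences of 21 to 22 nt, a choice made after seeing the data, 3 were higher and 4 lower instead of 6 and 8, miR-301a passed from -1.15 to 0.0099, and the medians were 0.0019 for the miR-17~92 and paralog clusters, -0.046 for miR-23/24/27, -1.14 for the miR-34 family and 0.29 for mature lymphocyte miRNAs. The myeloid value was 1.76 with a pseudocount of 10, 1.63 with the most abundant control sequence alone, 1.45 with 21 to 22 nt and 1.30 with missing sequences at 10, an alternative also added after seeing the data. Of miRNAs in 1 library only, 0 in control and 1 in Dicer reached 50. As shares of distinct sequences, Dicer minus control was 0.47 percentage points for guide, -0.76 for passenger, 0.28 for precursor and -0.0011 for loop. The median length change was -0.080 nt for 109 miRNAs of at least 200. For the 59 named miRNAs, 464 of 513 recomputed ratios moved by under 0.2 log2 units and stayed on their side of the threshold. This pooled count includes alternatives that hardly alter a ratio. All 59 stayed so with a pseudocount of 1, with no minimum, and relative to the library total. With the most abundant control sequence alone, 38 stayed so, 13 moved further, 4 became stronger and 1 weaker. With 21 to 22 nt, 36 stayed so, 12 moved further, 4 became weaker, 1 stronger and 1 reversed.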

Other observations

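miRNAs known to be induced when T cells are activated were divided in the DN3 comparison. Of 7 compared, 4 were above the median miRNA and 3 below, at a median of 0.12, and none was past 1 log2 unit. miR-221 stood at 520 in control and 861 in Dicer (0.70) and its cluster partner miR-222 at 78 and 145 (0.86). miR-31 stood at 3139 and 1850 (-0.79), close to miR-155 at -0.84. The low values of miR-31 and miR-155 did not depend on the longer forms, since in sequences of 21 to 22 nt both were at -0.86.

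In the miR-30 family, whose members had a median length of 23.2 nt in control, 4 of 5 members were below the median miRNA over all lengths, at a median of -0.15, and 0 of 5 in sequences of 21 to 22 nt, at a median of 0.04. miR-30e, the most abundant of them, stood at 10606 in control and 8506 in Dicer (-0.34), but at 1187 and 1355 in the shorter forms. The ratios of miR-27a and miR-27b moved the other way, from -0.43 and -0.37 over all lengths to -0.74 and -0.79 in sequences of 21 to 22 nt. Their mean lengths in control were 20.8 and 20.3 nt, so for them this count takes the longer forms. miR-23a, miR-23b and miR-24, which share their clusters, were between 0.17 and 0.22 over all lengths. In sequences of 21 to 22 nt they were near the median, at -0.05, 0.03 and 0.09.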
